A study of Homo sapiens with 16 samples.

Results

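The tubulin genes TUBA1A, TUBA1B, TUBA1C, TUBA4A, TUBB, TUBB2A, TUBB3, TUBB4B, TUBB6 and TUBG1 were examined in cytoplasmic RNA of human U2OS-TR osteosarcoma cells. These 10 of the 60107 Ensembl genes in the count tables were found by their GENCODE symbols, and all 10 had enough tags to be tested in every comparison. The libraries hold 3′-end sequence tags, so that each counted tag stands for the poly(A) end of an mRNA. Control and Induced libraries (5 each) came from a single clonal line, U2OS-TR/ΔN-RNMT, selected in G418, in which doxycycline induces ΔN-RNMT from a tetracycline-operator promoter. This is a form of the cap methyltransferase RNMT that stays in the cytoplasm and lacks activity. No Dox and With Dox libraries (3 each) came from the parental U2OS-TR line, which has the tetracycline repressor but no ΔN-RNMT, and they were sequenced on another instrument with longer reads. Cells grew for 48 h before doxycycline at 1 μg/ml, and RNA was collected 24 h later. By the paper's methods the Control and No Dox cells got no doxycycline, which is followed here, although the deposited protocol text names it for all 16 libraries. The study describes the 5 libraries of a group as biological replicates and the parental libraries as made from replicate cultures.

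Microtubules are hollow polymers of alpha- and beta-tubulin dimers that form the mitotic spindle and serve as tracks for transport. Gamma-tubulin does not enter the wall of the polymer but sits in the ring complex that starts new microtubules. Cells keep free dimers in balance by destroying tubulin mRNA as it is translated. TTC5 recognizes the first residues of a new alpha- or beta-tubulin chain on the ribosome, and SCAPER and the CNOT deadenylase complex act with it. Fewer cells of a kind and less mRNA per cell cannot be told apart in these bulk samples.

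The first coding bases are shown because they encode those residues. The codons for methionine, arginine, glutamate and then cysteine (alpha) or isoleucine (beta) are in capitals, and the bases were read from GENCODE 44 canonical transcripts on GRCh38. TUBA1A and TUBA1B share every base printed for TUBA1C.
TUBA1C: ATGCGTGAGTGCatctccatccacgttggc
TUBA4A: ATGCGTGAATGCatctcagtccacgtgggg
TUBB: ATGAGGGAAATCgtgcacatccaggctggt
TUBB6: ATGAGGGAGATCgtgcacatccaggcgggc
TUBG1: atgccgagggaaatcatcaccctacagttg
The 9 alpha- and beta-tubulin genes all begin with this tetrapeptide, whereas TUBG1 begins with methionine, proline, arginine and glutamate. It starts 19 of 19550 canonical protein-coding sequences in the annotation (0.0972%), and all 19 belong to alpha- or beta-tubulin genes. The alpha proteins were between 95.8% and 99.6% identical to each other and the beta proteins between 90.4% and 97.5%. The last 75 bases of the canonical transcripts were only between 60% and 64% identical among alpha genes and between 50.7% and 60% among beta genes. Tag positions were not examined here. The paper reports that many tags of uninduced cells lay upstream of annotated ends, and that use of annotated ends rose with ΔN-RNMT. These identities, and the alignments of transcript ends given below, therefore describe annotated ends only.

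Levels are given for each library as CPM, the tags on a gene relative to all tags on tested genes after TMM scaling of the library size. They are not divided by transcript length because a tag marks 1 mRNA end. The uninduced cells held most alpha-tubulin mRNA as TUBA1C, at 10008 ± 1789 CPM (SD, n = 5), and most beta-tubulin mRNA as TUBB, at 5791 ± 2711 CPM. TUBA1B followed at 3993 ± 2548 CPM, and its libraries overlapped those of TUBB. TUBB4B (976 ± 211 CPM) and TUBB6 (841 ± 172 CPM) were also close to each other. TUBA4A (316 ± 30.3 CPM) and TUBG1 (164 ± 32.4 CPM) were lower and did not overlap. TUBA1A (47.5 ± 40.8 CPM), TUBB2A (32.7 ± 20.2 CPM) and TUBB3 (18.7 ± 3.83 CPM) were the rarest, and neighbours in this order overlapped. Together the 10 genes took between 1.80% and 2.15% of gene counts in Control libraries and between 1.64% and 2.18% in Induced ones.

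Libraries of the transgene line held from 12527183 to 23251834 gene counts and those of the parental line from 1473286 to 3214808. RNMT, which checks the labels, had 74.3 ± 22.4 CPM in Control and 346 ± 78.0 CPM in Induced libraries, with no overlap. It rose by 2.22 ± 0.23 in log2 (SE, adjusted P = 0.00805). All adjusted P values are from edgeR's quasi-likelihood test, adjusted by Benjamini-Hochberg over every gene tested, unless stated. ACTB, beta-actin of the other main cytoskeletal polymer, changed by -1.26 ± 0.31 (SE, adjusted P = 0.0177 by edgeR). Control 5 and Induced 2 stood nearest to the other group in most tubulin genes, and Control 5 also had the highest RNMT of the uninduced libraries, 112 CPM against 55.6 to 74.6 CPM. Induced 2 had 360 CPM of RNMT, within the 266 to 458 CPM of the other induced libraries. Results are also given without Control 5 and Induced 2, a choice made after seeing the data and from the tubulin values. Of the marker lists, SPARC (205 ± 42.6 CPM in Control), COL1A1 (72.6 ± 11.2 CPM) and VIM (165 ± 98.4 CPM) were measured, whereas COL1A2 and BGLAP had 0 counts in every Control library. SPARC (log2 fold change 0.05) and COL1A1 were not called, whereas VIM, which encodes vimentin, rose by 1.44 in log2 (adjusted P = 0.0182 by edgeR) and RUNX2, a bone transcription factor gene, by 1.16 (adjusted P = 0.0175 by edgeR). The blood markers summed to at most 0.746 CPM in the transgene line, and the neuronal markers to between 7.65 and 11.5 CPM in Control and between 6.91 and 10.1 CPM in Induced libraries, although SNAP25 was called higher (1.26) and SYP lower (-1.06). The epithelial markers summed to between 394 and 615 CPM in Control and between 273 and 383 CPM in Induced libraries, nearly all from KRT18 and KRT8, and the part of such shifts in the tubulin values was not tested.

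Induction of ΔN-RNMT was accompanied by lower levels of 6 of the 10 tubulin mRNAs (TUBA1C, TUBA4A, TUBB, TUBB4B, TUBB6 and TUBG1) and a higher level of TUBA1A. Among all 13038 genes tested, 19.8% were called lower and 20.0% higher at an adjusted P below 0.05. The median log2 fold change was -0.57 over the 10 genes and 0.04 over all genes. TUBA1B, TUBB2A and TUBB3 were not called. No gene of the 10 had groups that did not overlap, which 7.30% of all tested genes had. Without Control 5 and Induced 2, 8 of the 10 did not overlap, beside 59.4% of all tested genes. Then 9 were called (6 lower and 3 higher), beside 30.5% of all genes called lower and 33.8% higher. As these 2 libraries were chosen on the tubulin values, neither count is separate evidence. Scaled by total counts alone, the median of all genes was 0.28 and 4 of the 10 were called (TUBA1A higher, TUBB4B, TUBB6 and TUBG1 lower), when 10.7% of all genes were called lower and 30.8% higher. Leaving out Control 1, Control 2, Induced 1, Induced 3 or Induced 4 left 3 called (TUBB4B, TUBB6 and TUBG1), when between 14.3% and 19.6% of all genes were called in either direction, against 39.8% with every library. Leaving out Control 4 or Induced 5 left these and TUBA4A, when 25.3% and 28.6% of all genes were called. With offsets for GC content, 2 were called (TUBB6 and TUBG1, both lower), when 10.8% of all genes were called lower and 12.4% higher. With 1 surrogate variable none was called, when 1 gene of all those tested was.

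**Figure D1:**
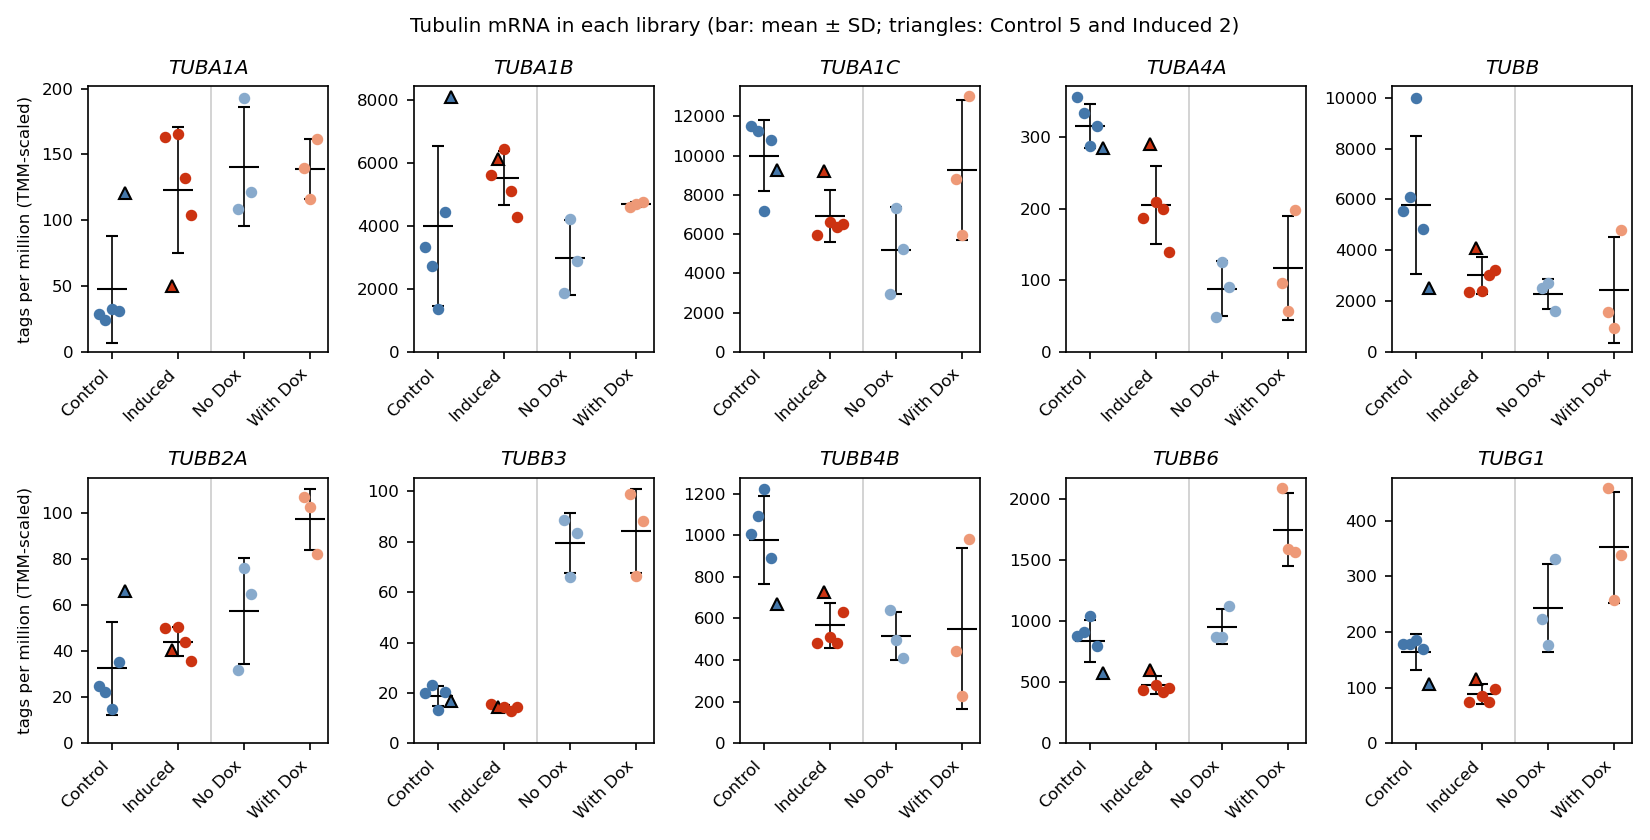
Each panel plots the TMM-scaled CPM of a tubulin gene in every library of the 4 groups, with the mean and SD of each group; the y axes are linear, start at 0 and differ between panels. Triangles mark Control 5 and Induced 2, which lie between the other libraries of the groups for TUBB6 (577 and 597 CPM) and TUBG1 (107 and 116 CPM).

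TUBA1C, the most abundant alpha-tubulin, lies on chromosome 12 from 49188736 to 49274600 on the forward strand. Its Control libraries 1 to 5 held 11504, 11263, 7201, 10783 and 9290 CPM, and its Induced libraries 5975, 9241, 6598, 6350 and 6512 CPM. All Induced libraries except Induced 2 lay below every Control library. TUBA1C had a log2 fold change of -0.53 ± 0.19 (SE, adjusted P = 0.0431 by edgeR), a 1.44-fold lower level. This call is lost with GC offsets (adjusted P = 0.0711) and when any of 7 of the 10 libraries is left out (highest adjusted P = 0.105).

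TUBA1B, another widely expressed alpha-tubulin, lies on the same chromosome from 49127782 to 49131397 on the reverse strand. Control libraries held 3340, 2734, 1356, 4440 and 8092 CPM, and Induced libraries 5593, 6124, 6429, 5116 and 4291 CPM. Control 5 was the highest of the 10 libraries, and Control 4 lay above Induced 5, so the groups overlapped. TUBA1B had a log2 fold change of 0.46 ± 0.37 (SE, adjusted P = 0.318 by edgeR). Without Control 5 it was 0.88 and the gene was called higher (adjusted P = 0.0187 by edgeR). TUBA1B and TUBA1C therefore had estimates of opposite sign, although only that of TUBA1C passed the test over all 10 libraries.

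TUBA1A, best known as the alpha-tubulin of developing neurons, lies on chromosome 12 from 49184686 to 49189080 on the reverse strand. Control libraries held 29.0, 24.4, 32.7, 30.9 and 120 CPM, and Induced libraries 164, 50.2, 165, 132 and 104 CPM. Control 5 was as high as the induced libraries and Induced 2 was the lowest of its group, yet every Induced library lay above Control 1 to 4. TUBA1A had a log2 fold change of 1.37 ± 0.47 (SE, adjusted P = 0.0390 by edgeR), which is 2.59-fold. It was 2.06 without Control 5 (adjusted P = 0.000432 by edgeR), but the call is lost when any of 8 other libraries is left out (highest adjusted P = 0.0872). Its estimate was above 0 under all 9 other ways of scaling, filtering or fitting, between 0.77 and 1.71.

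TUBA4A, the alpha-tubulin that is made without the C-terminal tyrosine, lies on chromosome 2 from 219249710 to 219277902 on the reverse strand. Control libraries held 356, 334, 288, 316 and 285 CPM, and Induced libraries 188, 291, 209, 199 and 140 CPM. Induced 2 alone among the induced libraries reached the Control range. TUBA4A had a log2 fold change of -0.62 ± 0.19 (SE, adjusted P = 0.0259 by edgeR). The last 300 bases of TUBA4A overlap STK16 on the opposite strand, and STK16, a protein kinase gene, also fell (-1.03, adjusted P = 0.0175 by edgeR). The part of STK16 tags in the TUBA4A value was not tested. GC offsets end the call of TUBA4A (adjusted P = 0.141 by edgeR), as does leaving out Control 1, Control 2, Induced 1, Induced 3 or Induced 4 (highest adjusted P = 0.0651).

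TUBB, the main beta-tubulin of these cells, lies on chromosome 6 from 30717435 to 30725538 on the forward strand. Control libraries held 5525, 6098, 9978, 4852 and 2503 CPM, and Induced libraries 2349, 4098, 2385, 3006 and 3223 CPM. Control 3 was the highest and Control 5 lay within the Induced range. TUBB had a log2 fold change of -0.94 ± 0.31 (SE, adjusted P = 0.0346 by edgeR), the largest fall in estimate of the 10 genes. The call is lost without any of 8 libraries (highest adjusted P = 0.0847), and without Control 3 the estimate was -0.68 (adjusted P = 0.0701). The last 75 bases of TUBB align to 3 other places of GRCh38 over at least 90% of their length, the closest at 98.7% identity. Its 9 named pseudogenes held 792 tags over all 16 libraries, which is 0.0929% of the tags on TUBB.

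TUBB4B, a broadly expressed beta-tubulin, lies on chromosome 9 from 137241287 to 137243707 on the forward strand. Control libraries held 1004, 1094, 1224, 889 and 670 CPM, and Induced libraries 484, 729, 514, 484 and 630 CPM. The groups overlapped only through Control 5 and Induced 2. TUBB4B had a log2 fold change of -0.78 ± 0.20 (SE, adjusted P = 0.0177 by edgeR), and the gene stayed called with each library left out in turn (highest adjusted P = 0.0496). With GC offsets it was -0.34 (adjusted P = 0.0651 by edgeR). Its last 75 bases align to 4 other places, the closest at 98.6% identity, and its 8 named pseudogenes had no tags.

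TUBB6, a broadly expressed but divergent beta-tubulin, lies on chromosome 18 from 12307669 to 12344320 on the forward strand. Control libraries held 876, 911, 1044, 797 and 577 CPM, and Induced libraries 438, 597, 481, 421 and 452 CPM. Only Control 5 and Induced 2 kept the groups from separating. TUBB6 had a log2 fold change of -0.82 ± 0.18 (SE, adjusted P = 0.0175 by edgeR), which is 1.76-fold lower. The gene stayed called with GC offsets, although the estimate shrank to -0.44 (adjusted P = 0.0378 by edgeR), and with each library left out in turn (highest adjusted P = 0.0495). Its last 75 bases align nowhere else over 90% of their length. AFG3L2, a mitochondrial protease gene, overlaps the end of TUBB6 on the opposite strand and fell by 0.60 on the log2 scale (adjusted P = 0.0387 by edgeR).

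TUBB2A, a beta-tubulin abundant in brain, lies on chromosome 6 from 3153497 to 3157544 on the reverse strand. Control libraries held 24.9, 22.2, 14.8, 35.2 and 66.5 CPM, and Induced libraries 50.3, 40.5, 50.6, 44.3 and 35.6 CPM. Control 5 was the highest of all 10, and the other 4 Control libraries lay below every Induced one. TUBB2A had a log2 fold change of 0.43 ± 0.34 (SE, adjusted P = 0.301 by edgeR), and 0.85 without Control 5 (adjusted P = 0.00741). BPHL, a hydrolase gene on the opposite strand of its end, changed by 0.64 (adjusted P = 0.0353 by edgeR).

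TUBB3, a textbook marker of neurons that many tumour lines also express, lies on chromosome 16 from 89921392 to 89938761 on the forward strand. Control libraries held 20.1, 23.1, 13.1, 20.5 and 16.9 CPM, and Induced libraries 15.6, 14.6, 14.6, 12.9 and 14.2 CPM. The Induced values were close together and overlapped Control 3. TUBB3 had a log2 fold change of -0.38 ± 0.17 (SE, adjusted P = 0.0796 by edgeR), and it turned to 0.12 with GC offsets. Without Control 3 it was -0.50 and the gene was called lower (adjusted P = 0.0336 by edgeR).

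TUBG1, the main gamma-tubulin, lies on chromosome 17 from 42609641 to 42615238 on the forward strand and has 11 exons, where the other 9 genes have 4. Control libraries held 179, 179, 186, 170 and 107 CPM, and Induced libraries 74.3, 116, 84.4, 73.9 and 98.3 CPM. Control 1 to 4 were tightly grouped and lay above every Induced library. TUBG1 had a log2 fold change of -0.88 ± 0.19 (SE, adjusted P = 0.0175 by edgeR), which is 1.84-fold lower. It was -0.49 with GC offsets (adjusted P = 0.0329 by edgeR) and stayed called with each library left out (highest adjusted P = 0.0495).

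**Figure D2:**
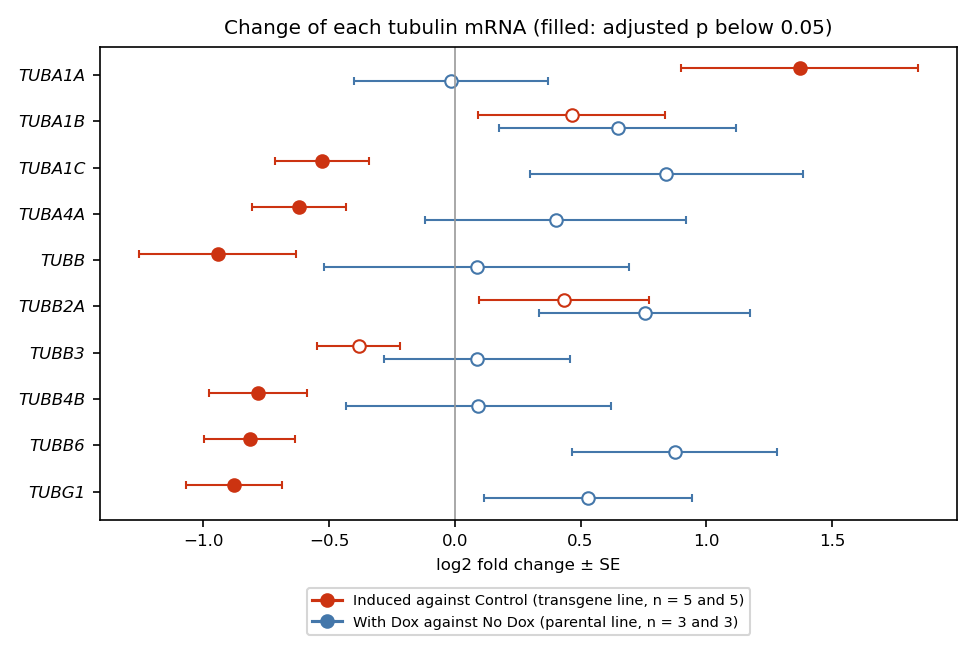
The x axis is the log2 fold change with its standard error for each tubulin gene, in the transgene line (red) and in the parental line (blue), and filled points passed an adjusted P of 0.05. In the transgene line 6 genes lie left of 0 and TUBA1A right of it as filled points, and in the parental line no point is filled.

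Shares within each class, counted over these 10 genes only, were taken to describe the makeup of their mRNA pool. TUBA1B made up 21.9%, 19.0%, 15.3%, 28.5% and 45.5% of the alpha-tubulin tags of these genes in Control libraries 1 to 5. In Induced libraries it made up 46.9%, 39.0%, 48.0%, 43.4% and 38.8%. Control 5 alone of the uninduced libraries lay in the Induced range. The TUBA1C share was 71.3 ± 11.5% (SD, n = 5) in Control and 54.2 ± 4.62% in Induced libraries. Summed alpha-tubulin tags of these genes had medians of 15229 and 11919 CPM, and their ranges overlapped. TUBA3C, an alpha-tubulin gene outside the 10, had 857 ± 265 CPM in Control and 409 ± 102 CPM in Induced libraries. The shares thus do not describe all alpha-tubulin mRNA. These shares are descriptions and were not tested.

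Shares of the beta-tubulin tags of these genes differed between the groups by less than their SD for TUBB, TUBB4B and TUBB6. TUBB2B is not among these genes. It had 466 ± 147 CPM in Control and 657 ± 78.8 CPM in Induced libraries, so the shares do not describe all beta-tubulin mRNA. TUBB made up 73.8 ± 5.70% (SD, n = 5) of the beta-tubulin tags of these genes in Control and 72.8 ± 2.85% in Induced libraries. TUBB4B made up 13.6 ± 2.66% and 13.9 ± 1.11%, and TUBB6 11.7 ± 2.34% and 11.8 ± 1.63%. The summed beta-tubulin tags were 7450, 8149, 12274, 6593 and 3835 CPM in Control and 3337, 5479, 3445, 3969 and 4355 CPM in Induced libraries. The ratio of summed alpha to summed beta tags ranged from 0.723 in Control 3 to 4.64 in Control 5, and from 2.54 to 3.89 in Induced libraries. The widest spread of this ratio thus lay among the uninduced libraries.

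**Figure D3:**
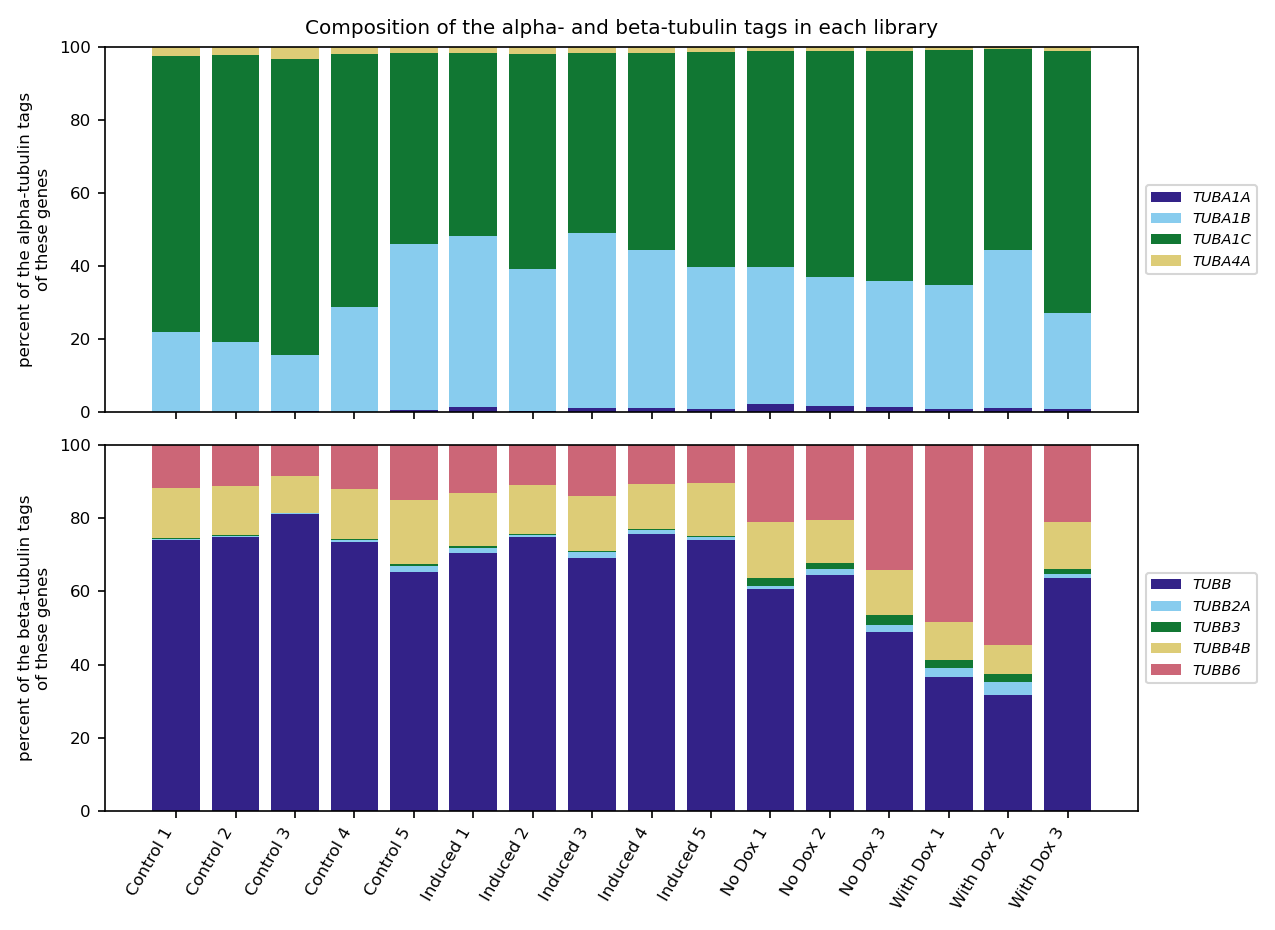
Each stacked bar gives the percentage of the alpha-tubulin tags (top) or beta-tubulin tags (bottom) of these genes that fell on each gene in a library. The TUBA1B share is 15.3% to 28.5% in Control 1 to 4, 45.5% in Control 5 and 38.8% to 48.0% in the Induced libraries.

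Doxycycline alone was examined in the parental line. None of the 10 genes was called there, beside 0% of the 9124 genes tested in either direction by edgeR (267 genes had an unadjusted P below 0.05, none of them a tubulin of the 10). The lowest adjusted P of the 10 was 0.997. The estimates ran from -0.02 (TUBA1A) to 0.87 (TUBB6) with standard errors between 0.37 and 0.61, where those of the transgene line were between 0.17 and 0.47. Their median was 0.47, and that of all genes -0.01. DESeq2's Wald test called 1 gene of all those tested, which was none of the 10.

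TUBB6 held 874, 871 and 1121 CPM in No Dox and 2092, 1591 and 1569 CPM in With Dox libraries, without overlap (estimate 0.87 ± 0.41 SE). TUBB2A held 32.0, 76.2 and 65.0 CPM in No Dox and 107, 103 and 82.3 CPM in With Dox libraries, also without overlap. TUBA1B held 1872, 4219 and 2874 CPM in No Dox and 4602, 4683 and 4761 CPM in With Dox libraries. These 3 of the 10 genes thus had every treated library above every untreated one, as had 4.87% of all genes tested in the parental line, and none of the 3 passed the test over all genes. TUBB held 2524, 2726 and 1612 CPM in No Dox and 1574, 921 and 4795 CPM in With Dox libraries, and TUBB4B 643, 495 and 411 CPM against 443, 229 and 982 CPM. Both were high in With Dox 3 only, and without it their estimates were -0.93 and -0.68. TUBA1C ranged from 2953 to 7356 CPM in No Dox and from 5966 to 13047 CPM in With Dox libraries. TUBG1 ranged from 176 to 331 CPM and from 258 to 458 CPM, and TUBA4A from 49.2 to 125 CPM and from 57.8 to 198 CPM. TUBA1A ranged from 108 to 193 CPM and from 116 to 161 CPM, and TUBB3 from 65.8 to 88.5 CPM and from 66.2 to 98.9 CPM.

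Counts on the opposite strand differed between the lines. TUBA1B-AS1, an antisense RNA gene that overlaps the end of TUBA1B, had between 16 and 42 tags in each transgene library but between 3110 and 12739 in the parental ones. That is between 0.987 and 1.02 tags for each TUBA1B tag in the parental libraries, and at most 0.00172 in the transgene libraries. FAM166A, which overlaps the end of TUBB4B, likewise had between 0.920 and 0.977 tags per TUBB4B tag in the parental line and at most 4 tags in any transgene library. In the parental libraries between 1.11 and 1.50 tags fell outside genes for each gene count, and in the transgene libraries between 0.0744 and 0.106. The cause was not tested. Levels are for this reason not compared between the lines, and only the changes within each line are.

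The changes differed between the lines for TUBB6 and TUBG1. The change with ΔN-RNMT minus that with doxycycline in the parental line was -1.92 ± 0.36 for TUBB6 (SE, adjusted P = 0.0372 by edgeR) and -1.64 ± 0.41 for TUBG1 (adjusted P = 0.0444). These values come from a joint fit of all 16 libraries with its own scaling and filter, so that they are not the plain difference of the estimates given for each line. Of the 12265 genes tested, 2.20% were called lower and 0.775% higher in this sense. The other 8 genes were not called, with adjusted P between 0.0644 (TUBA1C) and 0.698 (TUBA1B), and the median over the 10 was -1.19 beside -0.09 over all genes. The line cannot be told apart from its instrument and counting in this comparison. No gene of the 10 was called without Control 1, 2, 3 or 4, Induced 1, 3, 4 or 5, No Dox 1 or With Dox 1, when at most 0.0493% of all genes were called. With No Dox 2 or With Dox 3 left out 1 of the 10 was called, beside 0.955% and 0.144% of all genes in either direction. Without Control 5 or With Dox 2 there were 4, beside 18.9% and 13.3% of all genes, where the fit of all libraries called 2.98%. DESeq2's Wald test called TUBB6, TUBG1 and TUBA1C, beside 12.1% of all genes. With edgeR's filterByExpr none was called, and with DESeq2's size factors, total counts alone or no filter TUBB6 was the only one of the 10 called, beside 0.0182% of all genes with filterByExpr and 1.92%, 4.13% and 0.529% with the other settings.

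Other genes of the tubulin pathway were taken from 6 lists. Of the other tubulin genes, 7 of 12 were tested in the transgene line, 4 were called lower and 1 higher, with a median of -0.72. Of all genes tested, 19.8% were called lower and 20.0% higher. TUBA3C, an alpha-tubulin described mainly in testis, had 857 ± 265 CPM in Control and 409 ± 102 CPM in Induced libraries (log2 fold change -1.06, adjusted P = 0.0175 by edgeR). TUBB4A (-1.30) and TUBG2 (-0.95), a beta- and a gamma-tubulin, also fell from means of 4.09 and 5.40 CPM. TUBB2B, the close copy of TUBB2A, was not called and had 466 ± 147 CPM in Control and 657 ± 78.8 CPM in Induced libraries. With total counts alone 2 of these 7 were lower and 2 higher, beside 10.7% and 30.8% of all genes. With GC offsets, a setting added for the lists after their values were seen, 1 was lower (TUBA3C) and 1 higher (TUBB2B, adjusted P = 0.0463 by edgeR). Of all genes, 10.8% were then called lower and 12.4% higher.

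Genes for tubulin folding and dimer assembly were called lower for 7 and higher for 2 of 21 tested, beside 19.8% and 20.0% of all genes. The list median was 0.00. TBCE, also listed, was not matched. The cofactors TBCD (-1.53) and TBCC (-1.25), which assemble the alpha-beta dimer, and the prefoldin subunit PFDN5 (-1.11) fell most among the called genes. TBCD had 218 ± 107 CPM in Control and 75.3 ± 30.2 CPM in Induced libraries (adjusted P = 0.0175 by edgeR). The chaperonin subunits CCT3 (-0.49) and CCT7 (-0.72) fell and CCT2 (0.99) rose. With GC offsets CCT2 (adjusted P = 0.0591 by edgeR) and CCT3 (adjusted P = 0.0511) were not called, and TCP1 and CCT5 were called lower. The list then had 6 genes lower and none higher, beside 10.8% and 12.4% of all genes.

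Of the 3 autoregulation genes, 1 was called higher and 1 lower, beside 20.0% and 19.8% of all genes. TTC5, which reads the tetrapeptide, had 5.35 ± 4.58 CPM in Control and 15.3 ± 5.59 CPM in Induced libraries (log2 fold change 1.51 ± 0.46 SE, adjusted P = 0.0267 by edgeR). CNOT11, a subunit of the CNOT deadenylase complex, had 991 ± 283 CPM and 485 ± 147 CPM (-1.03 ± 0.26 SE, adjusted P = 0.0177 by edgeR). SCAPER, which links TTC5 to that complex, had 14.4 ± 1.76 CPM and 12.8 ± 4.49 CPM and was not called. The TTC5 call is lost with GC offsets (adjusted P = 0.0511) and that of CNOT11 is not (adjusted P = 0.0313).

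Among tubulin modification genes 6 of 18 tested were lower and 1 was higher (median -0.08), beside 19.8% and 20.0% of all genes. The deacetylase HDAC6 (-0.98) and the ligase TTLL3 (-0.93) fell, and SVBP (1.45), the partner of the tyrosine-removing vasohibins, rose from 7.80 ± 2.82 CPM to 21.4 ± 6.94 CPM. In the gamma-tubulin ring complex 3 of 11 tested were lower and 1 higher (median -0.11), beside the same shares of all genes. MZT2B (-1.09) and MZT2A (708 ± 275 CPM in Control and 354 ± 72.2 CPM in Induced libraries) fell, as did the core subunit TUBGCP2 (-0.84), whereas MZT1 (1.59) rose. The MZT proteins are small partners of the complex that holds TUBG1. MZT2B fell from 2067 ± 733 CPM to 970 ± 209 CPM (adjusted P = 0.0175 by edgeR). With GC offsets the calls of MZT2A (-0.34, adjusted P = 0.0997), HDAC6 (adjusted P = 0.0710) and TTLL3 (adjusted P = 0.0668) are lost and MZT2B is -0.43 (adjusted P = 0.0493 by edgeR). Then 1 modification gene was lower and 1 higher, and 2 ring complex genes were lower and 2 higher. Of all genes, 10.8% were called lower and 12.4% higher with these offsets.

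Microtubule binding, dynamics and severing genes were called higher for 8 and lower for 4 of 27 tested (median 0.20), beside 20.0% and 19.8% of all genes. CLASP1 (1.56), which stabilizes plus ends, and KIF2C (1.28), a kinesin that takes ends apart, rose, and MAP1S (-0.91) fell. The severing genes KATNA1, KATNAL1, SPAST and FIGN rose, by 0.56 to 0.87 on the log2 scale, and were singled out after their values were seen. With GC offsets KATNA1, KATNAL1, FIGN and MAP1S were not called, and 4 of the 27 were higher and 2 lower, beside 12.4% and 10.8% of all genes. With total counts alone 12 of the 27 were higher and 1 was lower, beside the 30.8% and 10.7% of all genes given above. In the parental line no gene of the 6 lists was called.

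**Figure D4:**
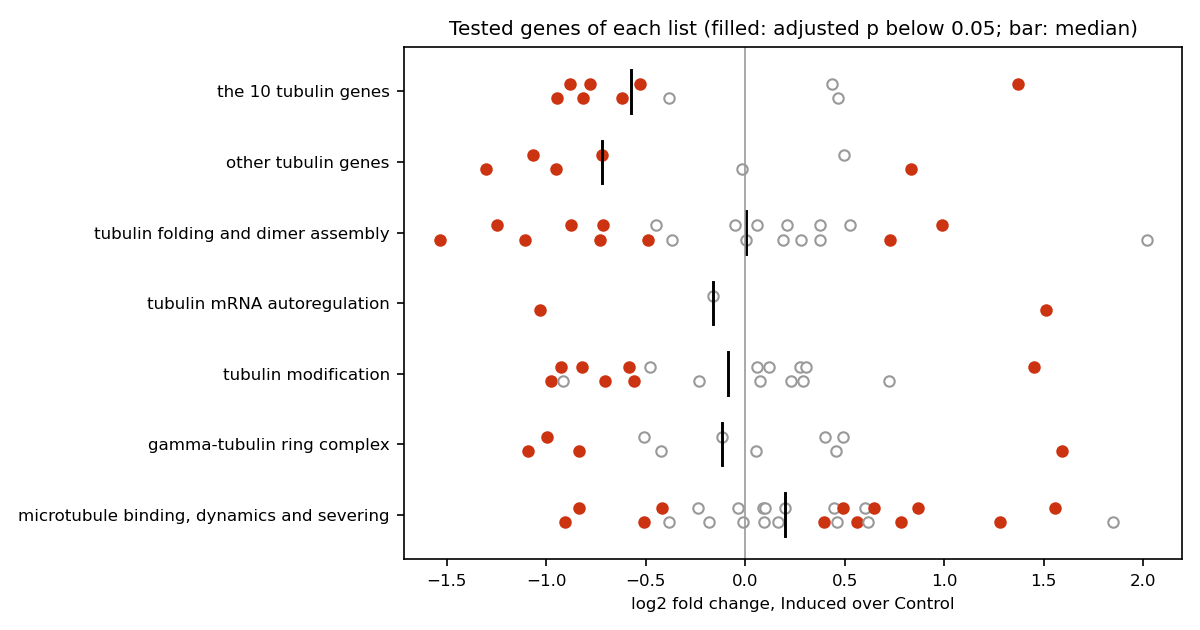
Each point is the log2 fold change of Induced over Control for a tested gene, by list; filled points passed an adjusted P of 0.05 and the black bar is the list's median. The 10 tubulin genes have a median of -0.57, and the microtubule binding, dynamics and severing genes a median of 0.20.

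Among the genes whose log2 CPM followed that of TUBA1C most closely over the 10 transgene libraries were CRELD2 (Pearson r = 0.987), TBC1D2 (0.984), CCNE1 (0.979) and RANGRF (0.979). The same measure was 0.868 for TUBA4A, 0.836 for TUBB3, 0.775 for TUBG1, 0.711 for TUBB6, 0.697 for TUBB4B and 0.473 for TUBB. It was -0.14 for TUBA1B, -0.29 for TUBB2A and -0.79 for TUBA1A. These 10 libraries share a clone and fall into 2 groups, and the values are descriptions only.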

How the data were processed

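Tag counts of 16 libraries were used (5 Control, 5 Induced, 3 No Dox and 3 With Dox). The authors deposited raw counts per Ensembl gene, made with Lexogen's QuantSeq REV software on GRCh38. Which aligner and annotation were used, whether strand was read and how duplicates were treated is not given in the sources used here. Summary and spike-in entries were left out. Tags that aligned to several places are not in the counts, so genes with close copies keep part of their tags. They numbered between 0.561 and 1.33 per gene count in the transgene libraries and between 0.773 and 1.44 in the parental ones. Few tags on named pseudogenes therefore do not show how many tags were lost. The last 75 bases of TUBB3, TUBA1B and TUBG1 also have close copies elsewhere, at best 97.1%, 94.7% and 92% identical.

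Genes whose base mean exceeded 20 were tested by the quasi-likelihood method of edgeR 4.0.16 in R 4.3.3 after TMM scaling. P values were adjusted by Benjamini-Hochberg over the 13038, 9124 and 12265 genes fitted and called below 0.05. The script was tested on simulated data. SE is the absolute log2 fold change over the root of the F statistic. DESeq2 1.42.0, sva 3.50.0, offsets for GC content (lowess, span 0.5) and a replicate block served as alternatives. GENCODE 44 supplied symbols and coordinates and named 56104 of 60107 genes. Transcript ends were aligned to GRCh38 with BLAST+ 2.17.0.

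The 10 genes and the lists were chosen with earlier results of these data known. Named were the 10 genes, RNMT, ACTB, the 3 called genes of largest change in each list and the 5 genes most like TUBA1C, of which 1 is not reported here. The remaining genes were singled out with their values in view.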

Additional observations from a re-analysis of the deposited data

Results flagged for a closer look

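Of the 20 groups of 5 examined, 3 had a library far from the other 4 for a gene, where chance flags about 1 group in 20. That rate holds for separate groups, whereas these share the same 10 libraries and Control 5 recurs, so no excess is shown. TUBA1A had 120.4 CPM in Control 5, and the other Control libraries had between 24.4 and 32.7 CPM. TUBG1 had 107.1 CPM in Control 5, below the 170 to 186 CPM of the other Control libraries. TUBA1C had 9241 CPM in Induced 2, above the 5975 to 6598 CPM of the other Induced libraries.

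The change with ΔN-RNMT differed from that with doxycycline in the parental line by -1.921 on the log2 scale for TUBB6 and by -1.636 for TUBG1, as tested by the interaction of treatment and line.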

How the results depend on the processing

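Of the 10 genes, 7 were called in the transgene line, when 39.8% of all tested genes were called in either direction. With total counts alone 4 were called (41.6% of all genes), and with GC offsets 2 (23.1%). With GC offsets and the replicate block 3 were called (29.3%), and with 1 surrogate variable 0 (0.00767%). With each replicate left out between 3 and 9 were called, when between 14.3% and 58.5% of all genes were. The block alone gave 5 calls, without TUBA1C and TUBB, beside 39.8% of all genes. Deviations of same-numbered libraries correlated at 0.026 on average in the transgene line (from -0.373 to 0.625). In the parental line the average was -0.060 (from -0.420 to 0.237). In each line only replicate 2 correlated best with its own number, and Control 2 and Induced 2 did deviate together (0.625). TUBB6 and TUBG1 were called under every alternative in the transgene line except 1 surrogate variable (adjusted P = 0.0654 and 0.0674 by edgeR). With that variable TUBA1B turned to -0.0763 and TUBB2A to -0.0976, and TUBB3 turned to 0.12 with GC offsets and 0.15 with GC offsets and the replicate block. For the difference between lines, 2 were called in the main fit. With DESeq2's size factors, total counts alone or no filter 1 was called, and with filterByExpr 0. DESeq2's Wald test called TUBB6, TUBG1 and TUBA1C, beside 12.1% of all genes. Between 0 and 4 were called with a replicate left out. TUBA1B turned to 0.14 with total counts alone (between -0.60 and 0.0165 with a replicate left out). None of the 10 was called in the parental line under any alternative. There TUBA1A turned to 0.0261 with DESeq2's size factors, 0.00125 with filterByExpr, 0.0412 with no filter, 0.0257 with DESeq2's test, 0.0204 with the replicate block and 0.0171 with GC offsets and the block. TUBB turned to -0.14 with total counts alone, -0.27 with the block and -0.26 with GC offsets and the block. TUBB4B turned to -0.12, -0.15 and -0.0192 under the same settings, and TUBB3 to -0.0680 with total counts alone. With a parental replicate left out, estimates ran from -0.18 to 0.35 (TUBA1A), -0.25 to 0.82 (TUBA4A), -0.93 to 0.56 (TUBB), -0.0424 to 0.29 (TUBB3) and -0.68 to 0.54 (TUBB4B). With total counts alone, lower and higher calls were 2 and 2 for other tubulin genes (main 4 and 1), 4 and 4 for folding (7 and 2), 3 and 2 for modification (6 and 1), 3 and 3 for the ring complex (3 and 1) and 1 and 12 for microtubule binding (4 and 8). Of all genes, 10.7% were then called lower and 30.8% higher (main 19.8% and 20.0%). With GC offsets, added after seeing the data, lower and higher calls were 1 and 1 for other tubulin genes, 6 and 0 for folding, 1 and 0 for autoregulation (main 1 and 1), 1 and 1 for modification, 2 and 2 for the ring complex and 2 and 4 for microtubule binding. Of all genes, 10.8% were then called lower and 12.4% higher. The causes were not tested. The parental libraries are the shallowest, which limits what they can show.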
